A study of Homo sapiens with 6 samples.

Results

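The HOX cluster genes examined here are 38 named members of the HOXA, HOXB, HOXC and HOXD clusters, out of 20033 protein-coding genes of the RefSeq table of GRCh38.p14. HOX genes encode homeobox transcription factors that give cells their position along the head-to-tail axis of the embryo. Within each cluster the genes lie in the order in which they act along that axis, from the anterior to the posterior paralogue groups. In pluripotent stem cells most HOX genes are held silent, with Polycomb marks over the clusters, and retinoic acid or mesodermal signals open the clusters from the anterior end as cells differentiate.

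ATAC-seq, which finds open chromatin by the places where a transposase can insert sequencing adapters, was done in the human pluripotent stem cell line H1 grown on Matrigel in mTeSR1. All cells carried a short hairpin RNA delivered by a virus and were selected with puromycin. There were 2 libraries with the hairpin shHNRNPU #1, 2 with shHNRNPU #2, both against HNRNPU, a nuclear protein that binds RNA and DNA, and 2 with the control hairpin shLUC against luciferase. The series asks about HNRNPU and the nuclear matrix in these cells, all of them from 1 line, and the labels do not say whether repeats were separate cultures, so p-values measure only the spread between these libraries.

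The values are summits, the points of strongest signal in peaks called in each library by itself. A summit was counted as HOX if it lay in a listed gene, within 2000 bp of one, or anywhere between the first and last listed gene of a cluster. By this rule 352 of the 356720 summits were HOX summits. Summits within 250 bp of a common centre, in any library, were grouped into loci, and 133 of 123131 loci were HOX loci, with 30 in HOXA, 41 in HOXB, 28 in HOXC and 34 in HOXD. The clusters spanned 99.7 kb on chromosome 7 for HOXA, 200 kb on chromosome 17 for HOXB, 117.0 kb on chromosome 12 for HOXC and 103.0 kb on chromosome 2 for HOXD.

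The whole lists held from 52168 to 63519 summits, and no summit of 1 list recurred with the same position and score in another. Sequencing depth is unknown, so the lack of a summit means only that no peak was called, and no limit of detection can be given. All 8 pluripotency genes looked up had a summit in all 6 libraries, and so did all 10 markers of other cell types, so summits near these genes do not check the cell label. Groups did not overlap in summit number for 3 of these 18 genes. Over all protein-coding genes with a summit, 3.27% were lower and 2.3% higher in this way. SOX2 had 1, 2, 1 and 2 summits with shHNRNPU against 3 and 3, and NANOG 2, 2, 1 and 1 against 3 and 3, both pluripotency genes and both lower. GATA4, an endoderm and heart gene, had 13, 13, 12 and 11 against 10 and 8, and was higher. By percentile of the strongest summit, the pluripotency gene DPPA4 stood at 58.4 to 82.9 against 83.3 and 87.6 and the neural gene PAX6 at 52.0 to 62.1 against 67.4 and 71.7, both lower with shHNRNPU. Over all genes with a summit in all 6 libraries, 9.64% were lower and 13.4% higher in this way. The part of such changes in the HOX counts was not tested. HNRNPU expression is not measured by these files. In bulk libraries, fewer cells with an open site and less opening per cell cannot be told apart.

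Promoter sequence shows what the summits lie in. RefSeq windows reaching from 250 bases before to 50 bases after a start were at hand for 20 of the 38 genes. The upstream 250 bases are printed for 3 HOXD genes, 5′ to 3′ on GRCh38.p14, with each CG dinucleotide in capitals. HOXD1, which helps to wire sensory neurons, had the 1 window of the 20 with a summit in all 6 libraries. HOXD10, which patterns the limb and lumbar motor neurons, and HOXD4, a hindbrain gene, were chosen after their values were seen, the first for a locus called with shHNRNPU and the second as a window with no summit.
HOXD1 (chr2:176188418-176188667, plus strand): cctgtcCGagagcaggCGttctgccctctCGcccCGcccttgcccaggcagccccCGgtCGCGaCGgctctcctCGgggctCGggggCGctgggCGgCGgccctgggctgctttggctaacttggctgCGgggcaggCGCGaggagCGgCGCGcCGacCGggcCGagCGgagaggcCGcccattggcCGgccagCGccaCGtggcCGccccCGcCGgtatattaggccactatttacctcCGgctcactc
HOXD10 (chr2:176116528-176116777, plus strand): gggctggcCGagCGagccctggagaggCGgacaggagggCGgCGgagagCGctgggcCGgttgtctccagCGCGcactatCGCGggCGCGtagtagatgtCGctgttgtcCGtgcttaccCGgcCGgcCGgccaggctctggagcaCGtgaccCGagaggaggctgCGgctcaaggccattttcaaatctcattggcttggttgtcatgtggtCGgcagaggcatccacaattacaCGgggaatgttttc
HOXD4 (chr2:176151300-176151549, plus strand): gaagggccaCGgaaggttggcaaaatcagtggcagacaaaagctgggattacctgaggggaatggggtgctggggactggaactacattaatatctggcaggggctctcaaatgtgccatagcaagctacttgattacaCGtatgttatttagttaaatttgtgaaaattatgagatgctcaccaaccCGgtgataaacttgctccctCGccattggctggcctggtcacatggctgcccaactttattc

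These stretches held 31 CG dinucleotides upstream of HOXD1, 23 upstream of HOXD10 and 4 upstream of HOXD4. The HOXD1 locus was centred 6 bp past the start, just beyond the printed bases, and the HOXD10 locus was centred on base 24 of the printed run. The printed windows do not stand for a relation between CG content and summits. HOXD4 has the fewest CG dinucleotides of the 20 windows, while the windows of HOXA6, HOXD3 and HOXD11, with 29, 25 and 27 over all their bases, also had no summit, and that of HOXA13, with 44, had one in 2 libraries. At HOXD11 a summit lay outside the window but within 1 kb of the start in all 6 libraries. No library had one within 1 kb at HOXA6 or HOXD3. Over the whole 300-base windows the median of the 20 HOX genes was 22.5 CG dinucleotides, against 22 for all 15842 windows. The CG content of HOX windows was thus near that of promoters in general. A summit lay in the window in all 6 libraries for 5.0% of HOX windows, against 31.6% of all windows. No library had a summit in 11 of the 20 HOX windows, or 55.0%, against 37.9% of all windows. Among windows with at least 22.5 CG dinucleotides, a summit in all 6 libraries was found in 1 of 10 HOX windows against 47.7% of 7701 windows, and no summit in 3 of 10 against 12.6%. These shares hold for the 300-base window alone. Within 1 kb of the start, HOXA4, HOXD8, HOXD11 and HOXD13 also had a summit in all 6 libraries. The share of all windows at that distance is not given here.

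Of 4 short motifs searched on both strands of the 300-base windows, CCAAT was found in 17 of the 20 HOX windows, or 85.0%, against 36.4% of all windows. TATAAA occurred in 20% against 9.63%, and GGGCGG in 50.0% against 58.5%. The nuclear receptor half-site AGGTCA occurred in 0 of 20 windows, against 11.7% of all. HOXC4 and HOXC5 have the same window, and over the 19 distinct HOX windows CCAAT was found in 16 and no summit in 10. The CCAAT and GGGCGG motifs can share end letters on opposite strands, and a match says only that the letters are there. The upstream bases of HOXD1 and HOXD10 each held CCAAT and GGGCGG on one strand or the other, and those of HOXD4 held CCAAT.

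HOX summits were weak ones. Each summit's score was taken to be the −log10 q-value of its peak. It was turned into a percentile within its own library, so that 100 is the strongest summit of that list. The median HOX summit stood at percentile 32.3, against 75.8 for all summits in a 2000 bp reach of either end of any protein-coding gene. The median was 32.5 for HOX summits near gene ends and 31.2 for those further away. Only 1 HOX summit per library, and 0 in shLUC repeat 2, was above the 90th percentile.

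**Figure D1:**
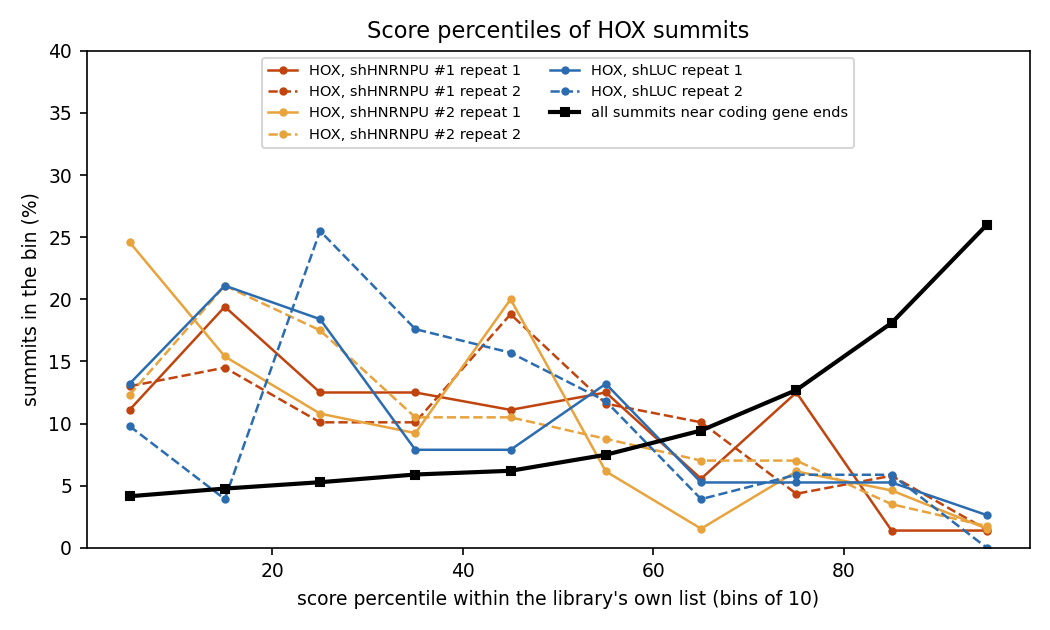
Share of HOX summits (y axis, percent) in each bin of 10 score percentiles (x axis) for each of the 6 libraries, with all summits near protein-coding gene ends in black. The black line rises to 26% in the top bin, where the HOX lines lie between 0.0% and 2.63%.

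Between the groups the strength of HOX summits showed no difference beyond the spread. The median percentile was 33.4 and 40.3 in the shHNRNPU #1 libraries, 29.1 and 29.1 in the shHNRNPU #2 libraries, and 29.3 and 35.9 in the shLUC libraries. The shLUC values fell inside the range of the shHNRNPU values. The difference of 0.374 percentile points was within the spread (two-sided exact permutation test over 15 assignments of the libraries, p = 0.933), and its sign turned with the processing. With 4 libraries against 2 the smallest p this test allows is 0.133, so no single value here could pass 0.05.

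More HOX summits were called with shHNRNPU than with shLUC. The shHNRNPU #1 libraries held 72 and 69 HOX summits, the shHNRNPU #2 libraries 65 and 57, and the shLUC libraries 38 and 51. Every shHNRNPU library was above both shLUC libraries, with both hairpins on the same side. The means were 65.8 ± 6.5 (SD, n = 4) and 44.5 ± 9.19 (SD, n = 2), a difference of 21.2 summits or 1.48-fold, with the smallest p the exact permutation test can give, 0.133. Without shLUC repeat 1 the difference was 14.8, and without shLUC repeat 2 it was 27.8.

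List length did not separate the groups, since the shHNRNPU lists held 52168 to 63519 summits and the shLUC lists 61373 and 62191. Per 10000 summits of a list, HOX summits numbered 12.2 and 10.9 with shHNRNPU #1, 11.1 and 10.9 with shHNRNPU #2, and 6.11 and 8.31 with shLUC. The difference of 4.07 per 10000 again reached the smallest exact p of 0.133. Taking the 52168 best-scored summits of each list left a difference of 18.5.

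Among 385 bins of 100 kb with a mean of at least 8 summits, all shHNRNPU libraries were above both shLUC libraries in 10.6% and below both in 1.56%, a comparison chosen after the data were seen. The median ratio of shHNRNPU to shLUC over these bins was 1.05, and single bins ranged from 0.696 to 1.91. The share of all summits near gene ends also moved with the group, at 26.7% to 30.7% with shHNRNPU and 26.1% to 26.6% with shLUC, and its part in the HOX counts was not tested. HOX summits away from gene ends numbered 28, 26, 27 and 19 with shHNRNPU and 16 and 20 with shLUC, and those near gene ends 44, 43, 38 and 38 against 22 and 31.

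The order of the groups was the same among summits with a raw score of at least 5. HOX summits with a score of at least 5 numbered 41 and 39 with shHNRNPU #1, 28 and 31 with shHNRNPU #2, and 16 and 25 with shLUC, and the groups did not overlap. Those with a score under 5 numbered 31, 30, 37 and 26 with shHNRNPU and 22 and 26 with shLUC, which touch at 26.

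All 4 clusters had a higher mean with shHNRNPU, but HOXB alone had groups that did not overlap. HOXB held 23, 22, 17 and 23 summits with shHNRNPU and 10 and 15 with shLUC, a difference of 8.75 or 1.7-fold (exact permutation p = 0.133). HOXA held 15, 18, 17 and 12 against 8 and 13, and HOXC 14, 13, 11 and 9 against 6 and 9 (exact permutation p = 0.267 for each). HOXD held 20, 16, 20 and 13 against 14 and 14, a difference of 3.25 (exact permutation p = 0.4). Adjusted over the 4 clusters by Benjamini-Hochberg, the p-values were 0.356 for HOXA, HOXB and HOXC and 0.4 for HOXD, and differences between clusters were not tested.

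**Figure D2:**
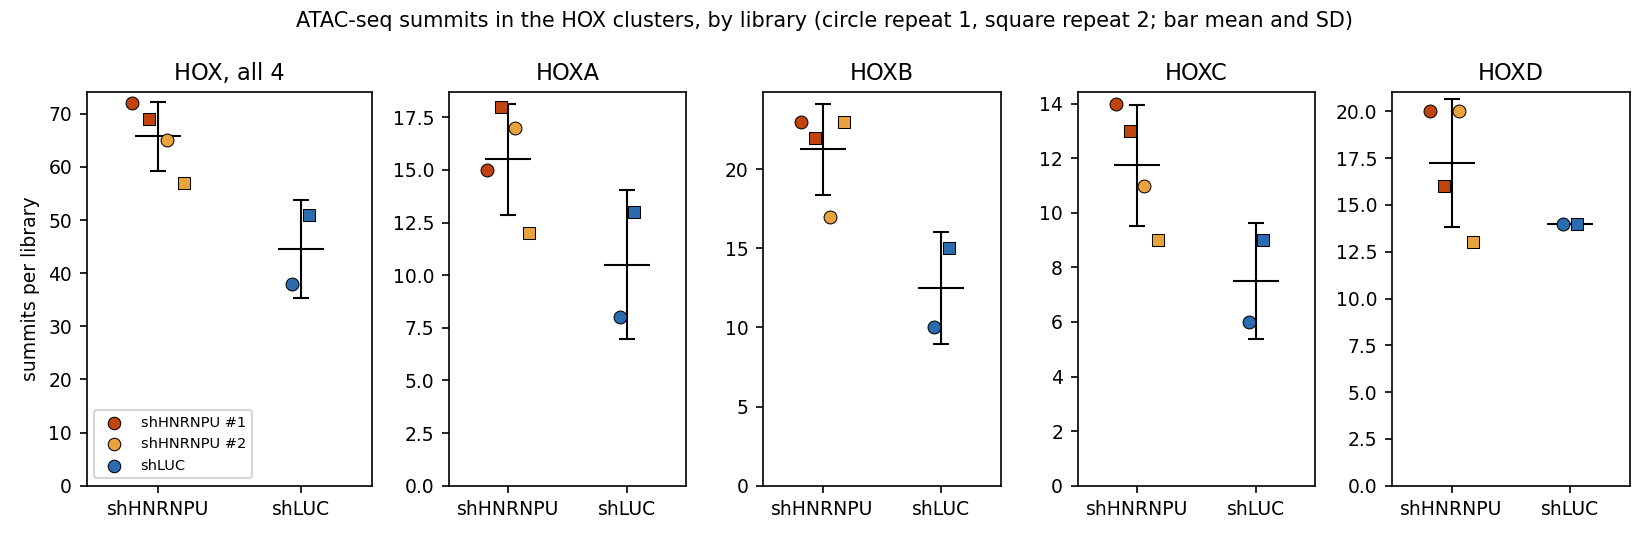
Number of summits per library (y axis) in all 4 HOX clusters and in each cluster, with points for libraries, horizontal bars for group means and whiskers for the SD. All 4 shHNRNPU points lie above both shLUC points for the 4 clusters together (57 to 72 against 38 to 51) and for HOXB (17 to 23 against 10 to 15), and they overlap in HOXA and HOXD and meet in HOXC.

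HOXB is the longest cluster because HOXB13, a posterior gene known from the prostate and the tail bud, lies far from its neighbour HOXB9. That interval held 9, 9, 9 and 8 summits with shHNRNPU and 5 and 6 with shLUC. The rest of HOXB held 14, 13, 8 and 15 against 5 and 9, so that shHNRNPU #2 repeat 1 fell between the controls there. The HOXB groups were thus separate over the interval and overlapped over the remainder of the cluster.

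By gene, 36 of the 38 HOX genes had a summit in them or within 2000 bp in at least 1 library. HOXC8 and HOXC9, which give thoracic identity, had none in any of the 6 libraries. Of the 38, 18 had a summit in all 6 libraries, or 47.4%, against 77.1% of protein-coding genes. The libraries with shHNRNPU had a summit at 30, 31, 29 and 31 HOX genes and both shLUC libraries at 25, a difference of 5.25 genes with exact permutation p of 0.133. The windows of 24 HOX genes overlap that of another listed gene, so 1 summit can count for several genes.

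The mean number of summits was higher with shHNRNPU at 26 of the 36 HOX genes with a summit, or 72.2%, lower at 6 and equal at the rest. Over all protein-coding genes with a summit, 33.2% were higher and 33.5% lower. Groups did not overlap for 3 HOX genes, all higher with shHNRNPU, against 2.3% of 17335 genes that were higher in this way and 3.27% that were lower. These were HOXB3, HOXC13 and HOXD10, and no HOX gene was lower with shHNRNPU in this way. All 3 rested in part on summits scoring under 5. HOXB3 summits in shHNRNPU #1 repeat 1 scored at most 4.42, and the HOXD10 summit in shHNRNPU #2 repeat 2 scored 4.17. The HOXC13 summits beyond the 1 called in every library scored 1.68 to 4.29. With a score of at least 5 the groups at these 3 genes were no longer separate, while 3 other HOX genes of 30 were higher (1.98% of all genes).

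**Figure D3:**
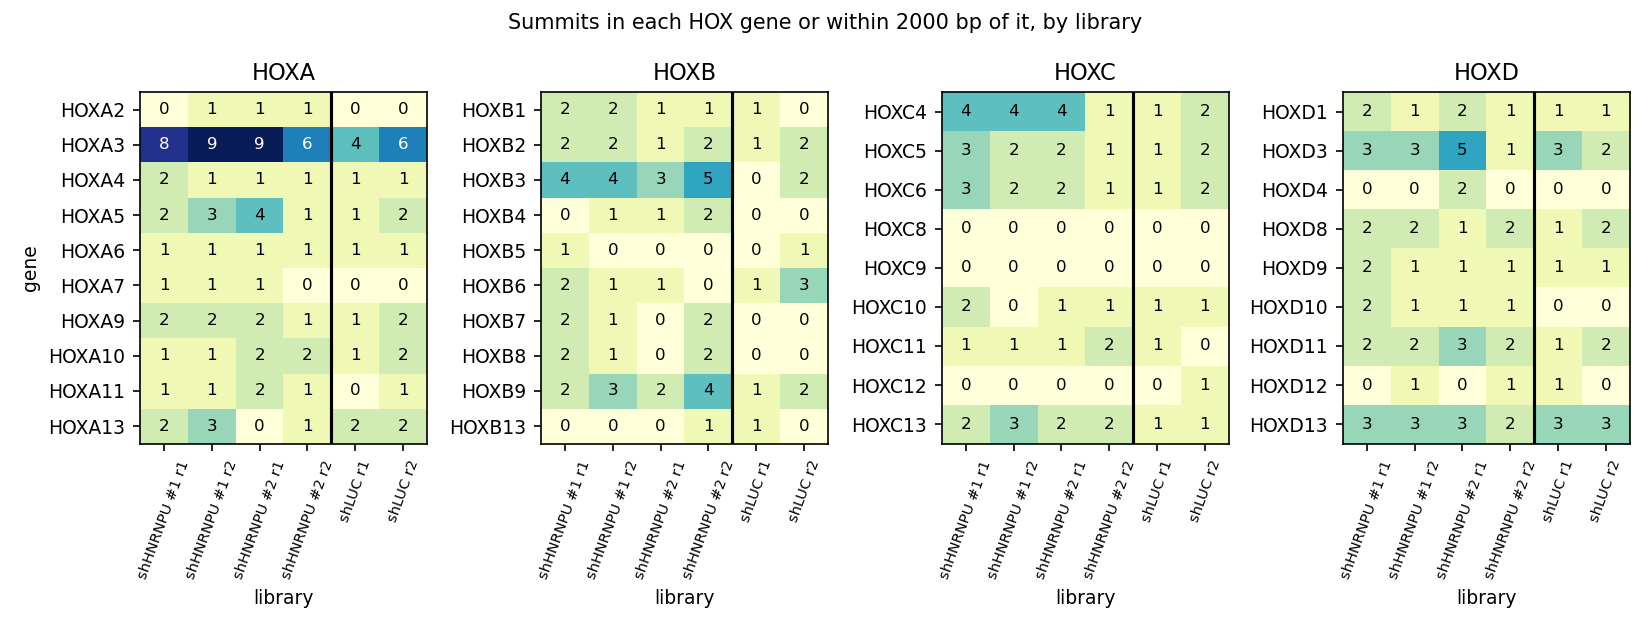
Number of summits in each HOX gene or within 2000 bp of it (digits and shading) by gene (rows) and library (columns), with a line between the shHNRNPU and shLUC libraries. HOXA3 has the highest digits, 4 to 9, HOXC8 and HOXC9 are at 0 throughout, and HOXD10 has summits only left of the line.

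Among the anterior genes, of groups 1 to 4, all 11 listed had a higher mean with shHNRNPU. The shares over all protein-coding genes with a summit were 33.2% higher and 33.5% lower. The 11 are not independent, since the windows of several overlap, and some differences were small. The means at HOXA4 were 1.25 against 1.0, and HOXD4 had summits in 1 library only. Summits at the anterior genes, each counted once, numbered 25, 26, 26 and 18 with shHNRNPU and 11 and 15 with shLUC (exact permutation p = 0.133). HOXA3 spans HOXA5 and HOXA6, and HOXC4 spans HOXC5 and HOXC6. The anterior and central counts thus share summits. HOXA3, which patterns the pharyngeal arches, had most summits of the HOXA genes, with 8, 9, 9 and 6 against 4 and 6, and the groups meet at 6. HOXB3, a hindbrain gene, had 4, 4, 3 and 5 against 0 and 2, and the groups did not overlap.

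HOXC4, a gene of the neck region with the most summits in HOXC, had 4, 4, 4 and 1 summits with shHNRNPU and 1 and 2 with shLUC. The library at 1, shHNRNPU #2 repeat 2, was no higher than the controls. HOXD3, another gene of hindbrain and neck, had 3, 3, 5 and 1 against 3 and 2, with the groups overlapping. HOXD4, named for its printed window, had 2 summits in shHNRNPU #2 repeat 1 and none in the other libraries.

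The central genes, of groups 5 to 8, pattern the lower neck and trunk. Of 11 listed, 7 had a higher mean with shHNRNPU and 2 a lower one. The shares over all protein-coding genes with a summit were 33.2% and 33.5%. Summits at the central genes numbered 12, 10, 9 and 6 with shHNRNPU and 4 and 9 with shLUC. The groups overlapped (exact permutation p = 0.4), and some of these summits were also counted at the anterior genes. HOXD8, a trunk gene, had groups that did not overlap in the percentile of its strongest summit, at 37.0, 46.3, 58.0 and 39.0 against 29.5 and 30.0. These summits were not all at the same locus, and the value of 58.0 came from a locus called in shHNRNPU #2 repeat 1 alone. At position 176128918 the groups overlapped, with 19.1, 46.3 and 30.9 in the shHNRNPU libraries with a summit against 30.0 in shLUC repeat 2. Of 15440 genes with a summit in all 6 libraries, 13.4% were higher in this way and 9.64% lower, and among the 18 HOX genes in that set HOXD8 alone was higher and 0 were lower. This count of HOX genes rested on the lists as deposited, and was 3 of 10 with a score of at least 5 (15.7% of all genes) and 6 of 17 with lists of one size (18% of all genes).

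The posterior genes, of groups 9 to 13, act in the lumbar and tail regions, the limbs and the genitals. Of 16 listed, 8 had a higher mean with shHNRNPU and 4 a lower one. The shares over all protein-coding genes with a summit were 33.2% and 33.5%. Summits at the posterior genes numbered 20, 21, 18 and 21 with shHNRNPU and 15 and 17 with shLUC. The groups did not overlap (exact permutation p = 0.133). HOXC13, which directs hair and nail keratins, had 2, 3, 2 and 2 against 1 and 1. HOXD13, a digit gene, had as many summits in all as HOXD3, with 3, 3, 3 and 2 against 3 and 3, and shHNRNPU was not above shLUC there.

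HOXD10 had 2, 1, 1 and 1 summits with shHNRNPU and 0 and 0 with shLUC. All 4 shHNRNPU libraries shared a locus centred at position 176116551 of chromosome 2, in no annotated gene and 227 bp upstream of HOXD10. Its percentiles were 51.6 and 72.3 with shHNRNPU #1 and 67.2 and 20.1 with shHNRNPU #2. The nearest shLUC summit lay 5826 bp away. This was the only HOX locus gained, meaning called in all 4 shHNRNPU libraries and neither shLUC library, against 0.88% of all loci, and 0 of 133 HOX loci were lost, against 1.93%. A count of 1 in 133 is close to the share over all loci.

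Sharing between libraries was read locus by locus, with a summit near 2 centres counted at both. Of the 133, 44 were called in 1 library and 16 in all 6, or 12.0% in all 6 against 20.7% of all loci. Loci called in 2 or 3 libraries made up 21.1% and 15% of HOX loci, against 14.8% and 10.1%. These shares are descriptions, and no test was made of them.

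**Figure D4:**
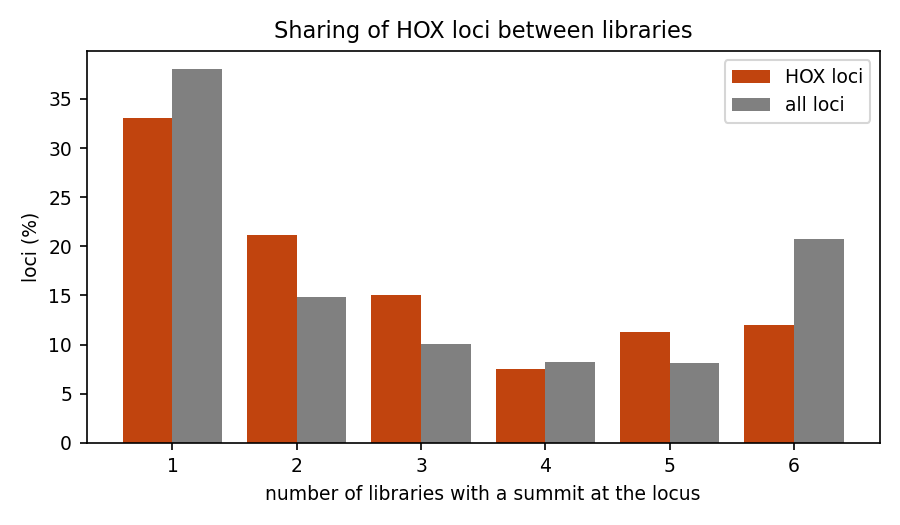
Percent of loci (y axis) called in 1 to 6 libraries (x axis) for the 133 HOX loci and for all 123131 loci. HOX loci are fewer at 6 libraries (12.0% against 20.7%) and more at 2 and 3 libraries.

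Loci of 1 group only were mostly those of shHNRNPU. Summits of shHNRNPU libraries alone made up 63 HOX loci, or 47.4%, against 31.6% of all loci. Summits of shLUC libraries alone made up 7, or 5.26%, against 17.4%. There are 4 libraries on one side and 2 on the other, in HOX loci and all loci alike. The 63 loci of shHNRNPU alone were weak, with a median of 20 over the highest percentile of each locus in any library. No such value over all loci of shHNRNPU alone is given here.

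At 8 HOX loci, or 6.02%, at least 3 of 4 shHNRNPU libraries and neither shLUC library had a summit, against 3.24% of all loci. Apart from the one upstream of HOXD10, these lay at positions 27139597 and 27150911 in HOXA3, in HOXA11, in HOXC13, in the shared body of HOXC4, HOXC5 and HOXC6, 3794 bp downstream of the HOXB1 start, and 4767 bp upstream of HOXB8. They were chosen after their values were seen. The reverse pattern, both shLUC libraries with at most 1 shHNRNPU library, was seen at 0 HOX loci, against 4.53% of all loci.

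For the 16 HOX loci called in all 6 libraries, the median of the mean percentiles was 61.6, against 73.7 over all loci called in all 6. Of the 16, 4 lay within 1000 bp of the outermost start of a listed gene and 7 inside one. The groups did not overlap in percentile at 2 of them, both higher with shHNRNPU, against 10.9% of 25519 such loci that were higher and 13.9% that were lower.

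**Figure D5:**
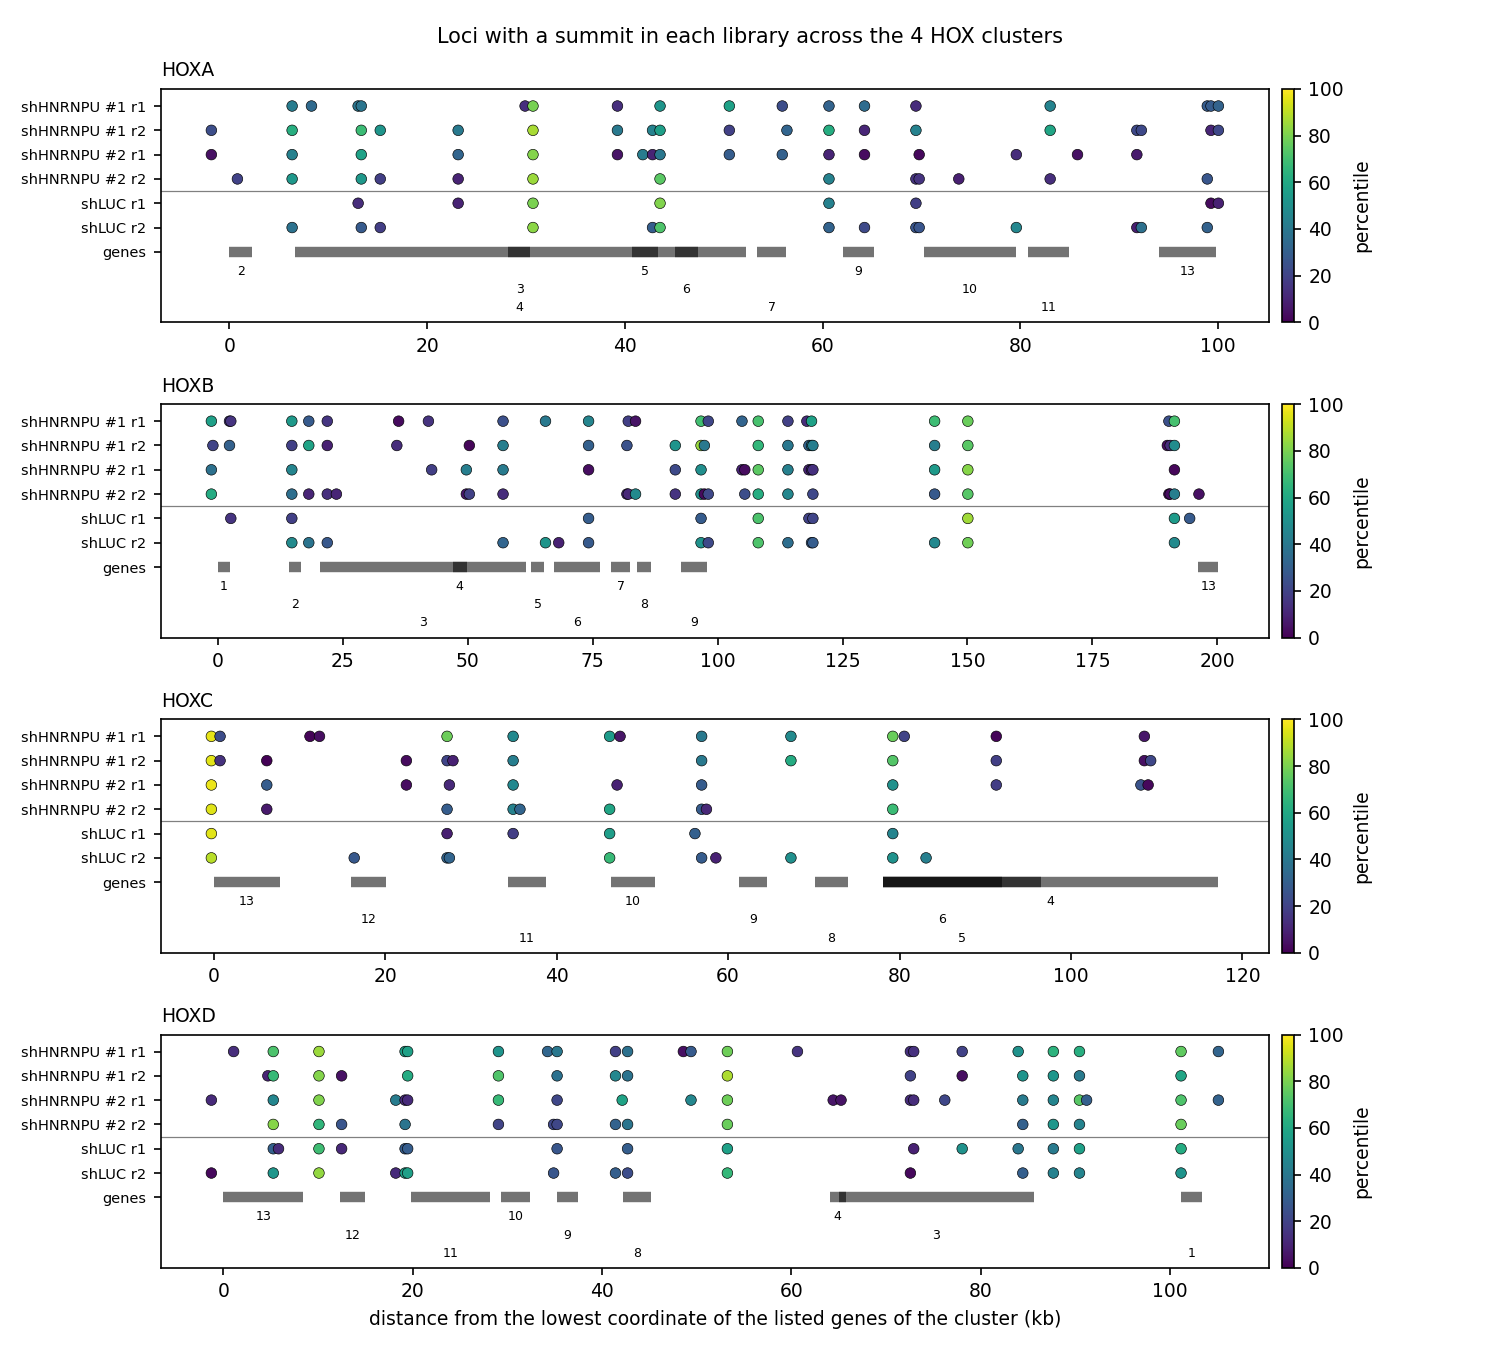
Loci with a summit in each library (rows, points coloured by score percentile) against distance from the lowest coordinate of the listed genes of each HOX cluster (x axis, kb), with the genes as grey bars numbered by paralogue group. Columns of points across all 6 rows are the 16 shared loci, and the points nearest 100 on the colour scale are those at the HOXC13 end of HOXC.

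The strongest HOX locus lay at position 53938558 of chromosome 12, 273 bp upstream of HOXC13 and inside HOXC13-AS, an antisense RNA gene. Its percentiles were 96.4, 95.7, 97.0 and 95.3 with shHNRNPU and 95.5 and 89.2 with shLUC, overlapping at the top of the lists. The only other HOXC locus in all 6 libraries lay in the body that HOXC4, HOXC5 and HOXC6 share, at position 54018044. It stood at 77.1, 73.2, 50.3 and 68.1 against 45.0 and 51.0, so that shHNRNPU #2 repeat 1 fell between the controls.

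In HOXA the strongest shared locus lay at position 27131054, inside the long HOXA3 gene and 297 bp upstream of HOXA4, a gene of the neck region. It stood at 79.6, 87.1, 81.3 and 84.9 against 79.8 and 82.7, with the groups overlapping. The next, at position 27143903 and 222 bp upstream of HOXA5, which is needed for lung and neck, stood at 52.2, 56.1, 39.7 and 74.3 against 80.9 and 71.9. This locus had its lower values with shHNRNPU, but shHNRNPU #2 repeat 2 was between the controls. The last, 4312 bp upstream of HOXA7 at position 27160987, ran from 10.0 to 62.0 with shHNRNPU around controls of 43.6 and 31.3.

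In HOXB the shared loci of highest percentile were in the interval and in HOXB9. One at position 48678606 of chromosome 17, inside LINC02086, stood at 77.0, 74.2, 82.0 and 73.8 against 85.8 and 78.4. One at position 48636659, inside LINC03057 and 10301 bp upstream of HOXB9, stood at 70.8, 65.9, 74.9 and 61.9 against 71.6 and 72.0. Both of these loci in long non-coding RNA genes overlapped between the groups. A locus in HOXB9, a thoracic gene, at position 48625213, stood at 69.6, 84.5, 49.3 and 50.0 against 28.7 and 50.9, also overlapping. Of all 133 HOX loci, 45 lay inside a long non-coding RNA gene.

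In HOXD the locus at position 176097587 of chromosome 2, 2208 bp upstream of HOXD12, a digit gene, stood at 84.9, 81.5, 81.0 and 65.3 against 68.9 and 83.6, with the groups overlapping. The locus at position 176140743, in no annotated gene and between HOXD8 and HOXD4, stood at 78.0, 87.7, 77.8 and 77.2 against 57.0 and 66.7. Here all shHNRNPU values were above both controls, and it is 1 of the 2 such shared loci, the other lying in HAGLR, a long non-coding RNA gene, at 64.2, 52.5, 45.4 and 53.0 against 41.4 and 43.5. The locus at the start of HOXD1, at position 176188674, stood at 75.7, 58.7, 71.9 and 77.1 against 61.5 and 51.8, with the groups overlapping.

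Genes that work with the HOX genes were read from 4 lists holding 31 genes in all. The lists were the TALE cofactors that bind DNA beside HOX proteins (9 genes) and the ParaHox and caudal genes (6). Of these 6, only the caudal genes act upstream of the trunk HOX genes. The other lists were the EVX genes next to the clusters (2) and the retinoic acid pathway that switches HOX genes on (14). All 31 had a summit in at least 1 library. Groups that did not overlap in summit number were seen at 0 of the 31, against the 2.3% of all genes that were higher and the 3.27% that were lower. By their strongest summit, 24 could be compared in all 6 libraries, against the shares of 13.4% higher and 9.64% lower over all genes. Of these, 2 were higher with shHNRNPU, CYP26A1, which breaks down retinoic acid, and CRABP2, which carries it in the cell. The 4 lower ones were the TALE gene PKNOX2, the caudal gene CDX1, the retinoic acid receptor gene RARB and ALDH1A1, whose enzyme makes retinoic acid.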

How the data were processed

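The series holds 1 summit list for each of 6 ATAC-seq libraries, with 4 shHNRNPU and 2 shLUC libraries grouped by their titles. The authors deposited each summit with a score that, from its layout and lowest values of 1.30 to 1.31, is the −log10 q-value of the peak within its own library. The submitters' processing notes name cutadapt, Bowtie2, SAMtools, MACS2, deepTools and the build hg38, and versions and parameters are not given in the sources used here. Peaks were called per library and scores are not normalized between libraries, so scores were used as percentiles within a list. The article that goes with these data concerns another gene in mouse cells and was used for style alone.

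Gene positions came from the RefSeq table of GRCh38.p14, which gives no strand. The strand of each cluster was taken from the RefSeq promoter windows, found for 20 of 38 genes. Loci were built by taking the summit of highest percentile, absorbing summits within 250 bp and repeating. Group means were compared by exact permutation over 15 assignments, two-sided by doubling the smaller tail. Counts of genes and loci whose groups do not overlap are given with the same count over the whole genome, and no test was made of them.

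The members and lists were chosen with earlier results of these data known. Values per library are given for genes with most summits in each cluster, genes whose groups do not overlap and genes without a summit. Named loci were the 3 of highest mean percentile per cluster among those in all 6 libraries, and those lost or gained. Named outside this rule, after their values were seen, were the 8 loci of at least 3 shHNRNPU and no shLUC libraries, the HAGLR locus whose groups did not overlap, and HOXD4. Other settings tried were summits scoring 5 or more, the 52168 best summits of each list, flanks of 500 bp, gene bodies alone, match distances of 100 and 500 bp, absence within 1000 bp, permutation within repeats and leaving out each library. Scripts were tested on simulated data. Python 3.11.15, numpy 2.4.6, pandas 2.3.3, scipy 1.17.1 and matplotlib 3.10.9 were used.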

Additional observations from a re-analysis of the deposited data

Results flagged for a closer look

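In 9 of 42 measures 1 shHNRNPU library stood apart from the other 3 by Dixon's criterion, which sets the gap to the nearest library against the range of the group. Chance gives about 1 in 20 for continuous values, and counts with ties, as most of these are, pass more easily. In shHNRNPU #2 repeat 1, HOXB held 17 summits, against 22 to 23 in the other shHNRNPU libraries, and HOXD8 held 1, against 2. In shHNRNPU #2 repeat 2, which has the shortest list, the anterior genes held 18 summits, against 25 to 26, HOXC4 held 1, against 4, HOXD13 held 2, against 3, and the interval from HOXB9 to HOXB13 held 8, against 9. In shHNRNPU #1 repeat 1, HOXD10 held 2 summits, against 1. In shHNRNPU #1 repeat 2, HOXC13 held 3 summits, against 2, and the locus 10807 bp upstream of HOXD4 stood at percentile 87.7, against 77.2 to 78.0.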

How the results depend on the processing

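All 74 alternative differences in summit and gene counts, over every setting tried, kept the direction of the reported ones, and none could pass 0.05. Those with permutation within repeats are among the 74, and they equal the reported differences by construction. For HOX summits the difference of 21.2 was 14.2 with a score of at least 5 and 13 in gene bodies alone, and HOXD in gene bodies fell to 0.75. The median percentile turned to -1.73 with a score of at least 5. Leaving out 1 library gave it from -2.89 without shLUC repeat 1 to 3.64 without shLUC repeat 2, and -2.08 without shHNRNPU #1 repeat 2. Gained HOX loci numbered 2 of 65 with a score of at least 5 (1.09% of all loci), 2 of 188 with a match distance of 100 bp (0.7%) and 2 of 115 at 500 bp (0.94%), and lost HOX loci 1 of 188 at 100 bp (1.97%). HOX genes higher in their strongest summit numbered 3 of 10 with a score of at least 5 (15.7% of all genes) and 6 of 17 with lists of one size (18% of all genes). Leaving out 1 library gave 0 to 4 lost HOX loci (2.49% to 10.6% of all loci) and 2 to 7 gained ones (1.39% to 2.56%). It gave 3 to 7 HOX genes higher in summit number (2.83% to 6.44% of all genes) and 0 to 2 lower (3.83% to 10.5%), and 1 to 10 higher in strongest summit (15.1% to 29.5%) and 0 to 2 lower (11.6% to 21%). The highest of these counts came without a shLUC library, except that 2 genes were lower in strongest summit also without shHNRNPU #2 repeat 2. Fewer libraries make it easier for groups not to overlap. With the repeat number as a replicate block the HOX difference stayed 21.2, by construction, with a smallest exact permutation p of 0.222 over 9 assignments. The labels do not say that repeats share a culture or day, and repeat differences over 17335 genes correlated between groups at -0.0804, -0.0444 and 0.051. Unknown depth limits every statement on uncalled sites.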
